A study of Danio rerio with 6 samples.

Results

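Collagens are the structural proteins of connective tissue. A collagen molecule is a triple helix of alpha chains wound around each other, and every chain is the product of its own gene, so that the genes expressed in a tissue set which molecules it can assemble. Fibrillar collagens form the tensile fibres of skin, bone and tendon, type IV collagen forms the sheet of basement membranes under epithelia and around vessels and muscle fibres, type VI forms beaded filaments around cells, and types II, IX, X and XI make up the matrix of cartilage and growing bone. In the thymus, collagen fibres are best known from the capsule, the septa and the walls of vessels, and basement membrane collagen from the outer epithelial layer and the vessels.

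The collagen chains described here were compared between whole thymi of *foxn1*-/- and *foxn1*+/+ zebrafish by bulk RNA-seq. The *foxn1*-/- fish (mutants) carry an internal deletion in *foxn1*, the gene of a transcription factor that thymic epithelium needs, and the *foxn1*+/+ fish (wild types) have both alleles intact. Adults aged 3 months were used, RNA of 3 fish was pooled in each library and 3 libraries were sequenced per genotype, without statement of whether pools of a genotype share a clutch or tank. The methods name an *ikzf1*:EGFP reporter background for thymi used in RT–PCR, and do not state it for these libraries. The chains were chosen by name: an Ensembl identifier counted as a collagen chain where its symbol was col, a number, a and a number, with any ending and in either case, col17a1 genes being left out. The files held 55 such identifiers among 32520, and 52 had more than 5 counts in at least 3 libraries and are described here, out of 23805 genes tested in all. Of the 3 identifiers below this limit, *col8a1a* (ENSDARG00000077403) had 0 counts in each mutant library and 2, 0 and 0 in wild types, *col28a1a* (ENSDARG00000077084) had 1, 3 and 2 counts in mutants and 9, 0 and 4 in wild types, and *col28a2b* (ENSDARG00000100781) had 3, 1 and 3 counts in mutants and 7, 1 and 0 in wild types. The name table lists 22 of the 52 by the symbol of the human gene in capitals, and 5 symbols stand for 2 identifiers each. These are told apart by their Ensembl identifiers, since the table does not say which zebrafish paralogue each one is.

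Total counts ranged from 40960276 to 42198532 in mutants and from 31989159 to 41685232 in wild types. A count of 3 corresponded to between 0.0802 and 0.0874 CPM in mutants and between 0.0623 and 0.0800 CPM in wild types, where CPM is the count of a gene relative to its library's total, scaled by the TMM method of edgeR. This floor covers counting error only. *foxn1* itself (ENSDARG00000011879) had 114, 129 and 66 counts in mutants and 495, 375 and 349 counts in wild types; which part of the gene these counts cover is not given. All 6 thymocyte markers tested were lower in mutants, and the recombinase gene *RAG1* had 324, 315 and 90.3 CPM in mutants and 5239, 4173 and 6038 CPM in wild types. The gene of the thymus-specific proteasome subunit, *PSMB11*, had 0 counts in each mutant library and 2509, 1597 and 1636 counts in wild types.

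Collagen transcripts took a larger share of the RNA in mutant thymi. Together the 52 chains took 2.35%, 1.86% and 2.86% of all counts in mutants, against 0.221%, 1.08% and 0.761% in wild types. Counts are not corrected for gene length here, and each level is relative to the rest of its library. In pools of whole organs, more cells of a type, more RNA per cell and fewer cells of other types cannot be told apart. Thymocyte markers took a mean of 0.0313% of counts in mutants and 0.936% in wild types. By edgeR's quasi-likelihood test (two-sided, adjusted with the Benjamini-Hochberg method over all genes, threshold 0.05), 48 of the 52 chains were higher in mutants, each by more than 2-fold. No chain was called lower: the count was 0 by edgeR, also at an unadjusted p under 0.05, and 0 by DESeq2 and by voom and treat, where DESeq2 called 48 chains higher and voom and treat 47. Among all genes tested, 72.1% were called in either direction, 36.2% higher and 35.9% lower in mutants, and 30.2% were called higher by more than 2-fold. The median log2 fold change of the chains was 2.33, with a range from 0.56 to 4.21, where the median of all genes was 0.02. For 45 chains all mutant libraries lay above all wild-type libraries, a pattern that 37.8% of all genes showed, and for 0 chains they lay below, as they did for 39.3% of all genes. The 4 chains that did not pass the test were *col24a1*, *col4a6*, one *COL10A1* (ENSDARG00000101535) and one *col7a1l* (ENSDARG00000093135), and all 4 had a positive fold change.

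**Figure D1:**
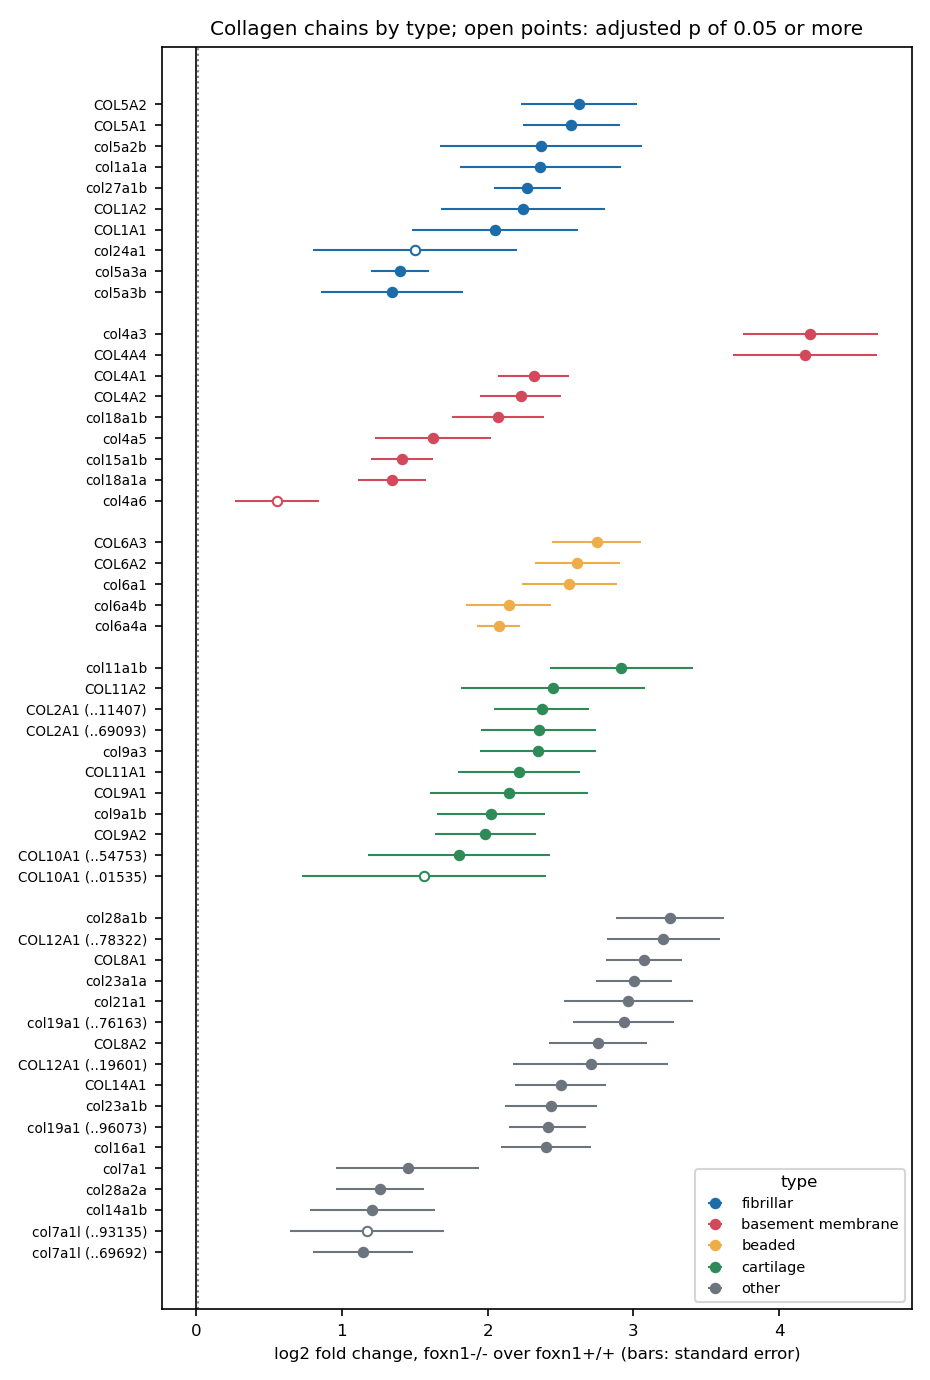
Log2 fold change of each collagen chain (x axis, *foxn1*-/- over *foxn1*+/+, bars are standard errors from edgeR), grouped by type, with filled points for chains that passed the test and open points for the 4 that did not; last digits of the identifier are given where 2 identifiers share a symbol. The dotted line is the median of all genes, 0.02; the chains lie between 0.56 and 4.21, with *col4a3* and *COL4A4* far to the right of the other basement membrane chains.

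For most chains the mutant libraries differed among themselves less than the wild types did. For the median chain the highest library was 1.56 times the lowest in mutants and 2.35 times the lowest in wild types, where over all genes these medians were 1.39 in mutants and 1.35 in wild types. Wild-type replicate 1 was the lowest of its genotype for 42 of the 52 chains, and for 8604 of the 23805 genes tested. Mutant replicate 2 was the lowest of its genotype for 40 chains, and for 8886 of the 23805 genes tested. Mutant replicate 3 was the highest for 33 chains. Leaving out wild-type replicate 1 lowered the median log2 fold change of the chains to 2.04 and left 44 chains called higher; leaving out wild-type replicate 3 or mutant replicate 3 left 43 each. The fold change was positive for all 52 chains in each of these fits.

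**Figure D2:**
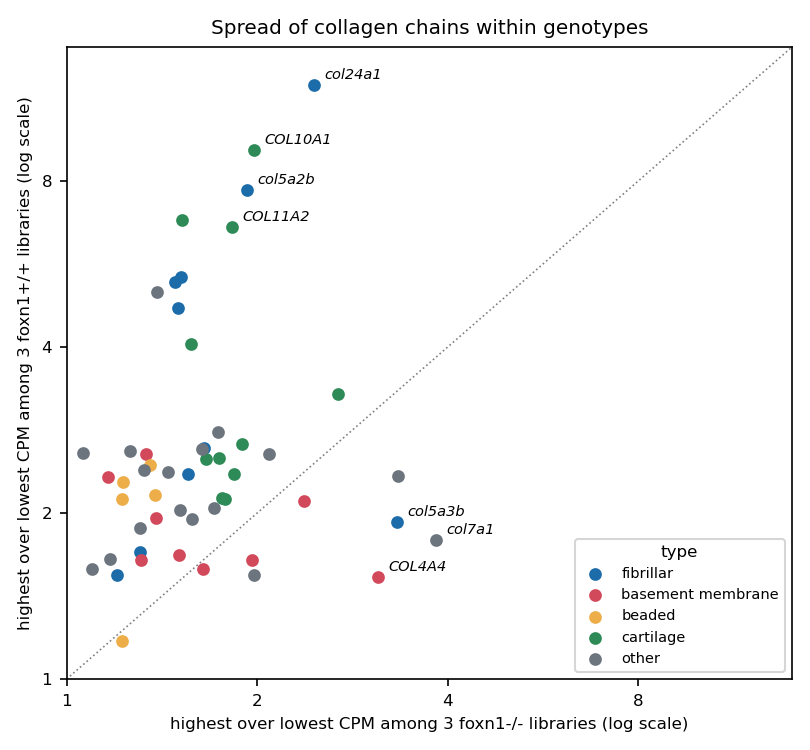
Ratio of the highest to the lowest library within each genotype, per collagen chain, with mutants on the x axis, wild types on the y axis and both axes on a log scale; points above the dotted diagonal varied more in wild types. This held for 43 of 52 chains; *col24a1*, with at most 12 counts in wild types, and *COL10A1* varied most in wild types and *col7a1* most in mutants.

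Of the 10 fibrillar chains (types I, V, XXIV and XXVII), 9 were higher in mutants, with a median log2 fold change of 2.26. Type I collagen is the main fibre of bone, skin and tendon, and its 3 chain genes alone took 72.2%, 73.1% and 71.4% of the collagen counts in mutants and 63.9%, 67.8% and 74.9% in wild types. *col1a1a* (ENSDARG00000012405) had 7205, 5570 and 8359 CPM in mutants and 411, 1932 and 1767 CPM in wild types. *COL1A1* (ENSDARG00000035809) had 5975, 4384 and 6656 CPM in mutants and 389, 2089 and 1625 CPM in wild types. *COL1A2* (ENSDARG00000020007), the partner chain, had 7095, 5403 and 8003 CPM in mutants and 423, 2219 and 1697 CPM in wild types. In all 3 genes wild-type replicate 1 stood far below the other wild types, and the genotypes did not overlap. By edgeR, *col1a1a* rose 5.14-fold (log2 standard error 0.552, adjusted p = 0.00707), *COL1A2* 4.72-fold (0.563, adjusted p = 0.00964) and *COL1A1* 4.15-fold (0.568, adjusted p = 0.0145).

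The proportions of the type I chains were compared as ratios of counts within each library. For the first pair, the ratio of *col1a1a* to *COL1A2* counts was 1.02, 1.03 and 1.04 in mutants against 0.971, 0.871 and 1.04 in wild types, which overlapped. The ratio of *COL1A1* to *COL1A2* counts was 0.842, 0.811 and 0.832 in mutants against 0.920, 0.941 and 0.957 in wild types. All mutants thus lay below all wild types. The log2 fold changes of *COL1A1* and its partner differed by -0.19. The standard errors of the single chains, 0.568 and 0.563, include differences between libraries that both chains share. They therefore do not measure the uncertainty of this difference, which was not tested. The ratio of *col1a1a* to *COL1A1* counts did not overlap, at 1.21, 1.27 and 1.26 in mutants against 1.05, 0.925 and 1.09 in wild types. With 3 libraries against 3 an exact permutation test cannot give a p below 0.1, and none was run on these ratios.

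Type V collagen is built into type I fibrils and limits their width. *COL5A1* (ENSDARG00000012593) had 365, 287 and 447 CPM in mutants and 36.7, 86.6 and 61.2 CPM in wild types, a 5.96-fold rise (adjusted p = 0.000493, edgeR). *COL5A2* (ENSDARG00000031678), its partner chain and the largest rise of the fibrillar group, had 231, 165 and 273 CPM in mutants and 17.4, 45.7 and 45.4 CPM in wild types. This was a 6.17-fold rise (adjusted p = 0.00101, edgeR). Its paralogue *col5a2b* rose 5.16-fold (adjusted p = 0.0184, edgeR), with 339, 223 and 429 CPM in mutants against 12.4, 95.6 and 84.2 CPM in wild types, and its adjusted p was 0.0502 without mutant replicate 3. The *col5a3* paralogues changed less. *col5a3a* had 16.8, 16.7 and 20.1 CPM in mutants and 5.88, 5.66 and 8.75 CPM in wild types, without overlap (2.64-fold, adjusted p = 0.000687, edgeR). *col5a3b* had 5.19, 1.78 and 5.91 CPM in mutants and 1.27, 2.44 and 1.36 CPM in wild types, so that mutant replicate 2 lay within the wild-type range (adjusted p = 0.0406, edgeR). Its call was lost under 7 of 13 alternatives (log2 fold change between 0.93 and 1.27 there, adjusted p from 0.0972 to 0.121).

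Of the minor fibrillar collagens, *col27a1b* (ENSDARG00000099930), known for its role in cartilage and notochord of zebrafish, had 19.1, 17.8 and 23.2 CPM in mutants and 2.89, 4.65 and 4.91 CPM in wild types. It rose 4.83-fold (adjusted p = 0.000158, edgeR). *col24a1* had 9, 24 and 16 counts in mutants and 6, 12 and 1 counts in wild types, and the difference did not pass the test (adjusted p = 0.0885, edgeR); without wild-type replicate 2 its adjusted p was 0.0244.

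Of the 9 chains of types IV, XV and XVIII, 8 were higher in mutants, with a median log2 fold change of 2.07. This group held both the largest and the smallest change of all 52 chains. In vertebrates, type IV chains are encoded in pairs of neighbouring genes, and the RefSeq gene order of zebrafish (assembly GRCz12tu) lists *col4a1* next to *col4a2*, *col4a4* next to *col4a3* and *col4a6* next to *col4a5*. The pairs are given in turn.

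The first pair makes the trimer found in nearly all basement membranes. *COL4A1* (ENSDARG00000055009) had 132, 87.6 and 124 CPM in mutants and 17.9, 20.98 and 30.1 CPM in wild types. *COL4A2* (ENSDARG00000104110) had 32.3, 23.4 and 30.3 CPM in mutants and 4.45, 5.23 and 8.72 CPM in wild types. *COL4A1* rose 4.98-fold (adjusted p = 0.000195, edgeR) and *COL4A2* 4.68-fold (adjusted p = 0.000384, edgeR), and the ratio of their counts, 4.08, 3.75 and 4.08 in mutants against 4.03, 4.01 and 3.45 in wild types, overlapped between genotypes.

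The second pair is known in mammals from the basement membrane of the kidney glomerulus and of some other epithelia. *col4a3* (ENSDARG00000003395) had 22.1, 10.2 and 9.31 CPM in mutants and 1.06, 0.505 and 0.640 CPM in wild types. *COL4A4* (ENSDARG00000002831) had 21.3, 9.69 and 6.87 CPM in mutants and 0.893, 0.584 and 0.587 CPM in wild types. These were the largest rises among the chains, 18.5-fold for *col4a3* (log2 fold change 4.21, standard error 0.463, adjusted p = 0.000244, edgeR) and 18.1-fold for *COL4A4* (4.18, standard error 0.495, adjusted p = 0.000334, edgeR). In both genes mutant replicate 1 was the highest library, and every other mutant was above every wild type. Their ratio was 1.04, 1.06 and 1.35 in mutants against 1.19, 0.864 and 1.09 in wild types, which overlapped.

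The third pair, known in mammals from basement membranes of skin and smooth muscle, came apart. *col4a5* (ENSDARG00000052063) had 2.68, 2.18 and 2.01 CPM in mutants and 0.478, 1.22 and 0.534 CPM in wild types, a 3.08-fold rise (adjusted p = 0.00828, edgeR). *col4a6* (ENSDARG00000052061) had 15.9, 12.1 and 8.08 CPM in mutants and 6.42, 10.5 and 7.55 CPM in wild types, with overlap (log2 fold change 0.56, standard error 0.288, adjusted p = 0.119, edgeR; 0.0267 without mutant replicate 3). The ratio of *col4a5* to *col4a6* counts was 0.169, 0.180 and 0.248 in mutants against 0.0744, 0.116 and 0.0707 in wild types, and did not overlap. The 2 log2 fold changes differed by 1.07, a difference that was not tested as such.

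Types XV and XVIII sit at the border between basement membranes and the fibrous matrix, and the end of type XVIII is the source of the fragment endostatin. *col15a1b* (ENSDARG00000061848) had 26.8, 28.9 and 35.1 CPM in mutants and 9.08, 10.2 and 14.9 CPM in wild types (2.66-fold, adjusted p = 0.000878, edgeR). *col18a1a* (ENSDARG00000036558) had 70.9, 43.2 and 61.7 CPM in mutants and 17.9, 28.5 and 22.8 CPM in wild types. Its paralogue *col18a1b* (ENSDARG00000095901) had 60.0, 51.6 and 56.5 CPM in mutants and 8.89, 10.5 and 20.6 CPM in wild types. *col18a1a* rose 2.54-fold (adjusted p = 0.00185, edgeR) and *col18a1b* 4.20-fold (adjusted p = 0.00104, edgeR), without overlap of genotypes in either.

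All 5 type VI chains were higher in mutants, under all alternatives tried, with a median log2 fold change of 2.56. Type VI filaments surround cells in muscle and loose connective tissue, and the main trimer is built from the products of *col6a1*, *col6a2* and *col6a3*. *col6a1* (ENSDARG00000074908) had 216, 195 and 264 CPM in mutants and 21.2, 51.8 and 41.4 CPM in wild types. *COL6A2* (ENSDARG00000061436) had 71.4, 64.4 and 88.8 CPM in mutants and 7.58, 16.3 and 12.8 CPM in wild types. *COL6A3* (ENSDARG00000077139) had 175, 166 and 203 CPM in mutants and 15.5, 35.2 and 30.4 CPM in wild types. *col6a1* rose 5.90-fold (adjusted p = 0.00047, edgeR), *COL6A2* 6.13-fold (adjusted p = 0.000258) and *COL6A3* 6.73-fold (adjusted p = 0.000255). The ratio of *COL6A3* to *col6a1* counts was higher in each mutant, at 0.812, 0.849 and 0.771, than in each wild type, at 0.729, 0.679 and 0.733. The ratio of *col6a1* to *COL6A2* counts overlapped, at 3.03, 3.03 and 2.97 in mutants against 2.80, 3.17 and 3.25 in wild types. Of 11 such ratios of chains computed, 5 did not overlap between genotypes, and none was tested. For levels of single genes, 37.8% of all genes tested had all mutants above all wild types and 39.3% had all mutants below. No such share was computed for ratios between other genes. The further chains *col6a4a* rose 4.22-fold and *col6a4b* 4.42-fold. *col6a4a* had the smallest adjusted p of all chains (4.7e-05, edgeR) and the most even wild-type libraries, with 19.3, 16.04 and 15.8 CPM in mutants and 3.88, 4.44 and 3.79 CPM in wild types.

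Of the 11 chains of types II, IX, X and XI, 10 were higher in mutants, with a median log2 fold change of 2.21. Wild-type replicate 1 was the lowest wild-type library for all 11, and mutant replicate 3 the highest mutant for 10. Type II forms the fibrils of cartilage. Its more highly counted identifier, *COL2A1* (ENSDARG00000069093), had 871, 837 and 1458 CPM in mutants and 108, 243 and 270.3 CPM in wild types, and the second (ENSDARG00000011407) had 139, 108 and 192 CPM in mutants and 17.8, 29.1 and 37.8 CPM in wild types. The first rose 5.10-fold (adjusted p = 0.00162, edgeR) and the second 5.17-fold (adjusted p = 0.000645, edgeR).

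Type IX collagen coats type II fibrils and type XI is built into them. The type IX chains *COL9A1*, *col9a1b*, *COL9A2* and *col9a3* rose between 3.96-fold and 5.08-fold (adjusted p from 0.00166 to 0.00992, edgeR). The ratio of *col9a3* to *COL9A2* counts did not overlap, at 0.836, 0.817 and 0.861 in mutants against 0.579, 0.733 and 0.627 in wild types. *COL9A1* (ENSDARG00000073699) had 63.9, 52.9 and 142 CPM in mutants and 8.10, 23.7 and 26.7 CPM in wild types, mutant replicate 3 being more than double the other mutants. Of type XI, *col11a1b* (ENSDARG00000009014) rose most among the cartilage chains, with 233, 184 and 289 CPM in mutants and 12.05, 32.8 and 48.7 CPM in wild types (7.56-fold, adjusted p = 0.00162, edgeR). *COL11A2* (ENSDARG00000012422) had 354, 256 and 467 CPM in mutants and 17.03, 68.0 and 113 CPM in wild types (log2 fold change 2.45, adjusted p = 0.0108, edgeR), and its log2 fold change was 3.08 without wild-type replicate 3. *COL11A1* rose 4.64-fold (adjusted p = 0.00274, edgeR).

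Type X, in mammals a product of hypertrophic cartilage and in teleosts also of bone-forming cells, gave the least clear result. *COL10A1* (ENSDARG00000101535) had 2303, 1166 and 1967 CPM in mutants and 160.3, 1459 and 217 CPM in wild types. Wild-type replicate 2 thus lay above mutant replicate 2, and the difference did not pass the test (log2 fold change 1.57, standard error 0.836, adjusted p = 0.13, edgeR). Without wild-type replicate 2 the log2 fold change was 3.26 (adjusted p = 0.000795), and by voom and treat the adjusted p was 0.0498. The second *COL10A1* (ENSDARG00000054753) had 945, 755 and 1149 CPM in mutants and 62.2, 423 and 332 CPM in wild types. It was called higher (3.49-fold, adjusted p = 0.0343, edgeR), but lost the call under 6 of 13 alternatives, including without each mutant replicate (adjusted p from 0.0502 to 0.0818).

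**Figure D3:**
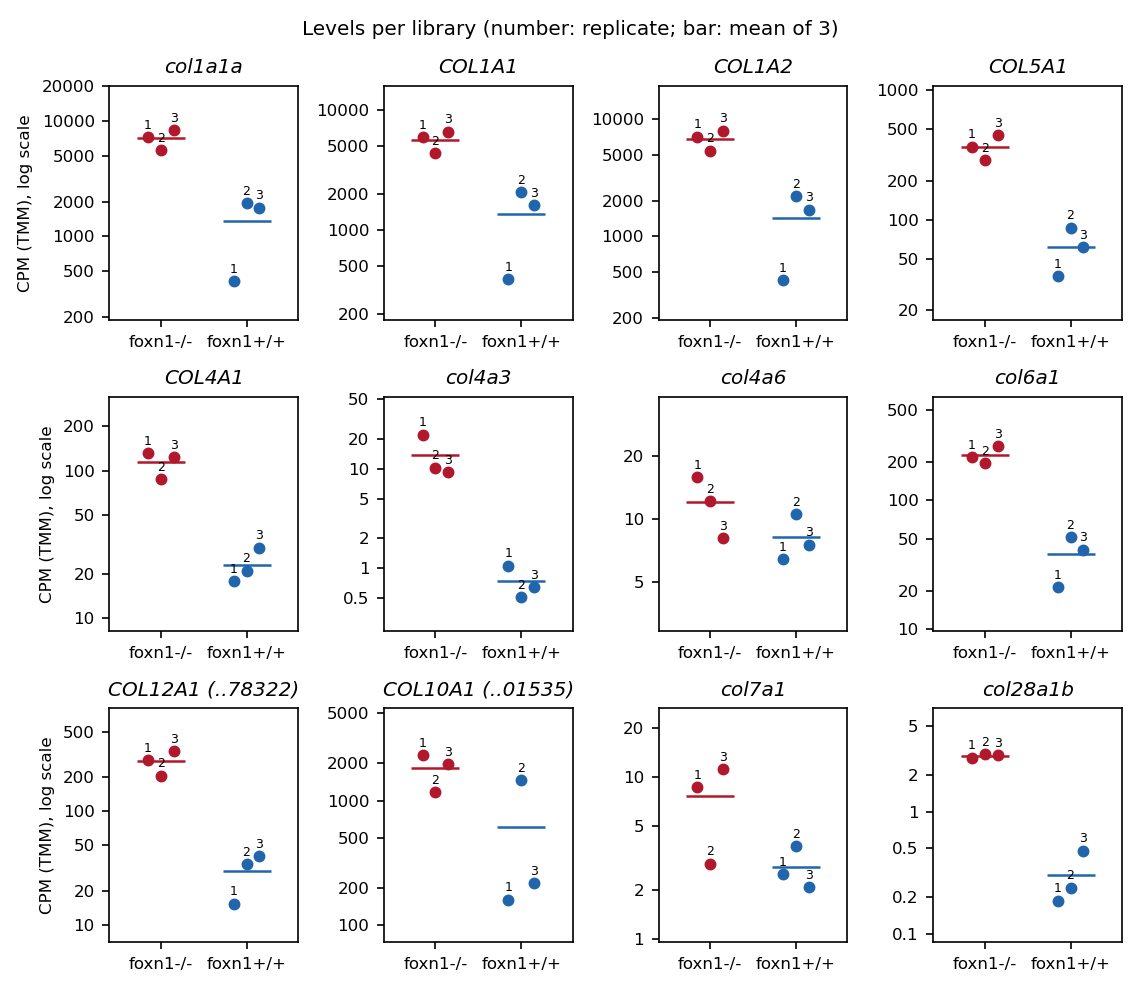
TMM-normalized CPM (y axes, log scale, each panel with its own range) of 12 chains in each of the 3 *foxn1*-/- (red, left) and 3 *foxn1*+/+ libraries (blue, right); numbers are replicates and bars are means. Wild-type replicate 1 is lowest for the type I chains, *col4a6* and *col7a1* overlap between genotypes, and wild-type replicate 2 sits among the mutants for *COL10A1*.

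Of the 17 remaining chains, 16 were higher in mutants, with a median log2 fold change of 2.50. Among them are collagens with interrupted helices that bind to the surface of fibrils, which together with type IX number 12 chains, all of them called higher (median 2.41). *COL12A1* (ENSDARG00000078322), a type found on type I fibrils of tendon and dense connective tissue, had 281, 206 and 338 CPM in mutants and 15.4, 34.1 and 40.2 CPM in wild types, a 9.22-fold rise (adjusted p = 0.000359, edgeR). The second *COL12A1* (ENSDARG00000019601) rose 6.52-fold, with 92.9, 81.2 and 113 CPM in mutants against 4.78, 24.01 and 15.3 CPM in wild types. *col16a1*, which adjoins *col9a2* in the RefSeq gene order, rose 5.27-fold and *COL9A2* 3.96-fold. Both *col14a1* genes were called higher, and the difference between them was not tested. *COL14A1* (ENSDARG00000005762) had 33.8, 28.6 and 37.9 CPM in mutants and 3.43, 6.11 and 8.22 CPM in wild types (5.66-fold, adjusted p = 0.000425, edgeR). *col14a1b* had 7.08, 4.41 and 7.65 CPM in mutants and 1.99, 4.65 and 1.65 CPM in wild types, with overlap (adjusted p = 0.0375, edgeR), and lost its call under 6 of 13 alternatives (adjusted p from 0.0602 to 0.138); its log2 fold change of 1.21 was 1.80 without wild-type replicate 2. The identifiers of *col19a1* rose 7.64-fold (ENSDARG00000076163) and 5.33-fold (ENSDARG00000096073), and *col21a1* rose 7.81-fold.

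The transmembrane chains *col23a1a* rose 8.02-fold (adjusted p = 9.3e-05, edgeR) and *col23a1b* 5.41-fold (adjusted p = 0.000435, edgeR). The short-chain network collagens of type VIII, known from vessel walls and the cornea, rose 8.41-fold (*COL8A1*) and 6.76-fold (*COL8A2*). The largest rise of this group was that of *col28a1b* (ENSDARG00000087087), a chain with domains of the von Willebrand factor A family, with 2.77, 2.93 and 2.89 CPM in mutants and 0.187, 0.239 and 0.480 CPM in wild types. It was 9.51-fold higher (adjusted p = 0.000252, edgeR), and its mutant libraries were the most even of all chains. In wild types it had only 9, 9 and 18 counts. Its relative *col28a2a* rose by 1.26 on the log2 scale (adjusted p = 0.0075, edgeR).

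Type VII forms the anchoring fibrils that fasten the epidermal basement membrane to the dermis, and its genes were among those with the smallest fold changes in this group. *col7a1* (ENSDARG00000021720) had 8.69, 2.91 and 11.2 CPM in mutants and 2.51, 3.72 and 2.08 CPM in wild types, so that mutant replicate 2 lay below wild-type replicate 2 (log2 fold change 1.45, standard error 0.490, adjusted p = 0.0314, edgeR). The call was lost under 7 of 13 alternatives (adjusted p from 0.0742 to 0.102). The *col7a1l* identifiers had log2 fold changes of 1.15 (ENSDARG00000069692, adjusted p = 0.019, edgeR, lost under 4 of 13 alternatives) and 1.17 (ENSDARG00000093135, adjusted p = 0.0796, edgeR; called without mutant replicate 2 at 1.54, adjusted p = 0.0214). The skin keratin *krt5* is 1 of 7 skin epithelium markers tested, of which 4 had all mutants above all wild types. It was chosen after its values were seen, and the order of libraries in the other markers is not given here. *krt5* had the same order of libraries as *col7a1* in mutants, with 14073, 3877 and 16200 CPM. Its highest wild-type value was also in replicate 2 (2017, 5829 and 1760.3 CPM in wild types). This order was not particular to type VII. Of the 52 chains, mutant replicate 2 was the lowest mutant for 40, beside 8886 of the 23805 genes tested. Mutant replicate 3 was the highest mutant for 33. Wild-type replicate 2 was the highest wild type for 26. For the highest library, no share over all genes was computed. The part of skin epithelium in the values of type VII was not tested.

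The genes of collagen processing were mostly higher in the mutants too. The counts below stand beside 36.2% of all genes tested called higher in mutants and 35.9% called lower. Of 21 genes for chain modification and folding, 18 were higher and 0 lower in mutants by edgeR, also at an unadjusted p under 0.05 and by DESeq2 (median log2 fold change 1.89); with library size alone, 1 was lower. The prolyl hydroxylase subunit *P4HA3* rose most, with 4.05, 3.71 and 5.24 CPM in mutants and 0.332, 0.717 and 0.534 CPM in wild types (log2 fold change 3.04, adjusted p = 0.000201, edgeR). *P4HB*, the shared subunit that also serves general protein folding, had 185, 141 and 222 CPM in mutants and 113, 135 and 124 CPM in wild types (0.56, adjusted p = 0.0228, edgeR). *PPIB*, the most highly counted gene of this list and a folding enzyme of the endoplasmic reticulum, changed by 0.49 (adjusted p = 0.0185, edgeR; lost under 4 alternatives). The collagen chaperone *SERPINH1* has 2 identifiers, of which one rose (ENSDARG00000075954, 1.44, adjusted p = 0.00236, edgeR), while the other (ENSDARG00000019949) had 78.8, 33.3 and 63.1 CPM in mutants and 24.9, 50.9 and 26.6 CPM in wild types, with overlap (adjusted p = 0.109). One *COLGALT1* (ENSDARG00000073974), of a galactosyltransferase of collagen, was the only gene of the collagen processing lists with a negative fold change with TMM scaling (-0.26, adjusted p = 0.17, edgeR). It had 7.67, 5.71 and 6.93 CPM in mutants and 7.83, 7.92 and 8.56 CPM in wild types. All mutants thus lay below all wild types, as they did for 39.3% of all genes tested. With library size alone this gene was called lower (-0.67, adjusted p = 0.00523, edgeR).

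Among 9 proteinases and enhancers that trim the ends of procollagen, 8 were higher and 0 lower (median 2.17). *pcolcea*, an enhancer of the trimming enzyme, had 209, 178 and 202 CPM in mutants and 23.5, 64.1 and 43.3 CPM in wild types (2.17, adjusted p = 0.00118, edgeR). The aminopropeptidase gene *ADAMTS14* rose most (2.56, adjusted p = 0.00064, edgeR). One *BMP1* (ENSDARG00000028053), of the trimming enzyme itself, did not pass the test (0.97, adjusted p = 0.0926), while the other rose (2.41, adjusted p = 5.2e-05, edgeR). The first was called without wild-type replicate 2 (1.59, adjusted p = 0.00886, edgeR) and with the replicate number as a block (1.13, adjusted p = 0.0399). Of 11 cross-linking enzymes, 10 were higher and 0 lower (median 1.95). The lysyl oxidase relative *LOXL4* (ENSDARG00000025089) rose most, with 76.7, 51.7 and 86.8 CPM in mutants and 2.99, 10.1 and 12.8 CPM in wild types (3.06, adjusted p = 0.00166, edgeR), *LOXL1* rose by 1.88, and *loxl5b* did not pass the test (0.67, adjusted p = 0.393), though it did without wild-type replicate 2 (1.64, adjusted p = 0.0463, edgeR).

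The list of collagen breakdown held 11 genes, all of them higher, with a median log2 fold change of 2.87. It includes 2 identifiers of *TIMP2*, an inhibitor of the metalloproteinases, which rose by 3.03 (ENSDARG00000061226) and 2.36 (ENSDARG00000075261). The gelatinase *MMP9* had 379, 373 and 445 CPM in mutants and 22.5, 43.6 and 78.2 CPM in wild types (3.05, adjusted p = 0.00075, edgeR). The most highly counted gene of this list, *MMP2*, had 854, 698 and 981 CPM in mutants and 63.0, 138 and 145 CPM in wild types (2.87, adjusted p = 0.000326, edgeR). The smallest change was that of *CTSK*, the collagen-cleaving cathepsin of osteoclasts, with 109.9, 102 and 116 CPM in mutants and 48.8, 56.7 and 51.5 CPM in wild types (1.06, adjusted p = 0.00015, edgeR). All 11 small proteoglycans that bind fibrils were also higher (median 2.63). *DCN*, decorin, had 552, 523 and 603 CPM in mutants and 59.5, 92.9 and 98.0 CPM in wild types (2.74, adjusted p = 5.9e-05, edgeR). *OGN* (ENSDARG00000031489) rose by 3.65, and *LUM*, lumican, by 1.54 with wild-type replicate 2 at 103 CPM against 34.0 and 37.5 CPM in the others (2.24 without that library).

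Of 13 collagen receptor genes, 12 were higher (median 2.36). The most highly counted, one *ITGB1* (ENSDARG00000071863), had 72.2, 59.6 and 86.3 CPM in mutants and 10.5, 15.4 and 16.03 CPM in wild types (2.38, adjusted p = 9.9e-05, edgeR). *itga2.1*, of an integrin subunit that binds collagen, had 30, 26 and 56 counts in mutants and 1, 0 and 2 counts in wild types, which is at least 13.8-fold higher against a floor of 3 counts per library. Another *ITGB1* (ENSDARG00000053232) changed by 0.71 (adjusted p = 0.0156, edgeR) and lost its call with library size alone (0.30, adjusted p = 0.197). Of 17 other basement membrane proteins, 13 were higher (median 1.99). *NID1*, nidogen (ENSDARG00000068710), had 195, 137 and 156 CPM in mutants and 11.2, 21.7 and 24.04 CPM in wild types (8.57-fold, adjusted p = 0.000168, edgeR). Among those that did not pass, the laminin chain gene *LAMA1* had 0.904, 0.754 and 1.18 CPM in mutants and 0.748, 0.691 and 1.36 CPM in wild types (0.02, adjusted p = 0.959).

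**Figure D4:**
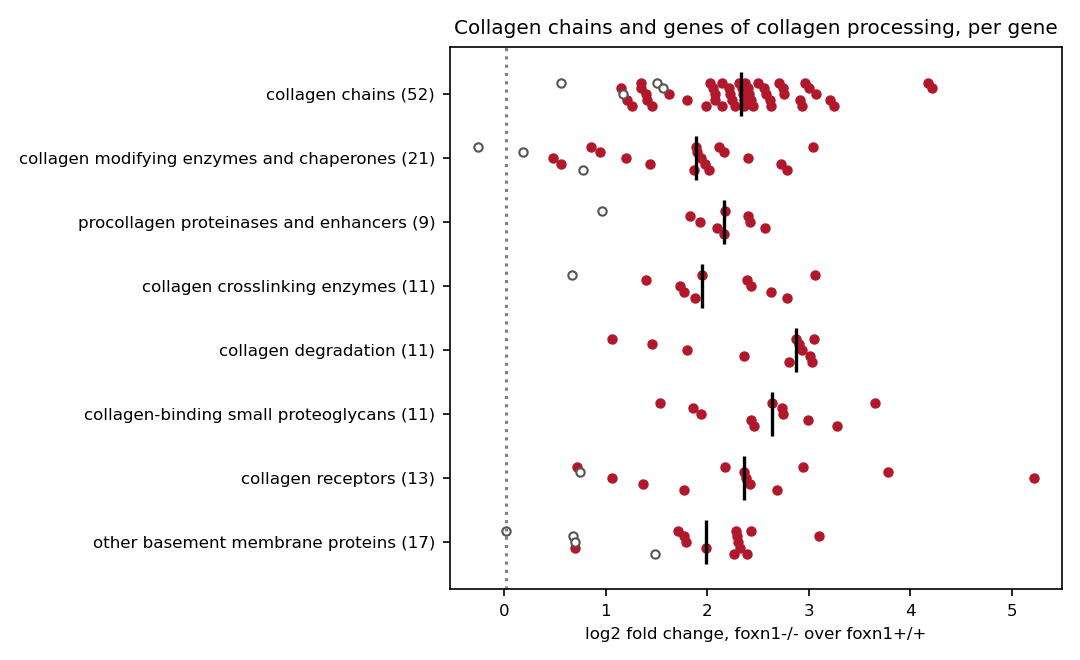
Log2 fold changes (x axis, *foxn1*-/- over *foxn1*+/+) of each gene in the lists of collagen chains and of collagen processing, with the number of genes tested in brackets; filled points passed edgeR's test, open points did not, black bars are list medians and the dotted line is the median of all genes. Medians run from 1.89 for modifying enzymes to 2.87 for breakdown; the fitted value of *itga2.1*, at the far right, is of a gene at the floor in wild types and is no bound.

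The markers of several collagen-producing cell types were mostly higher in mutants too. For comparison, 36.2% of all genes tested were called higher in mutants and 35.9% lower. Of 13 fibroblast and mesenchyme markers, 13 were higher in mutants (median log2 fold change 2.05), and their summed level was 0.0895%, 0.0730% and 0.0870% of counts in mutants and 0.0275%, 0.0380% and 0.0305% in wild types. Of 14 chondrocyte markers 12 were higher, 0 were called lower and 2 were not called (median 2.47, lowest -1.48). For 1 of the 14, all mutants lay below all wild types. The summed level of the 14 was 0.0871% to 0.137% of counts in mutants and 0.0132% to 0.0358% in wild types. All 10 osteoblast markers were higher (median 3.01), at 0.0943% to 0.117% in mutants and 0.00588% to 0.0287% in wild types. All 7 tenocyte markers were higher (median 2.91), at 0.0174% to 0.0228% in mutants and 0.00163% to 0.00374% in wild types. By share of counts, wild-type replicate 1 was again the lowest library for the fibroblast, chondrocyte, osteoblast and tenocyte lists. The same held for Schwann cells (0.0248% against 0.0806% and 0.154%) and, narrowly, for endothelium (0.00859% against 0.00872% and 0.0112%). Among wild types, contractile muscle was lowest in replicate 2 (0.876%), and skin epithelium (0.326%) and smooth muscle (0.0429%) in replicate 3. Among mutants, the chondrocyte and tenocyte lists were lowest in replicate 2 and highest in replicate 3, like the summed collagens. The osteoblast list was lowest in mutant replicate 1 (0.0943%), and the fibroblast (0.0895%) and endothelium (0.0252%) lists were highest there. All 9 endothelial markers were higher (median 1.75), at 0.0183% to 0.0252% in mutants and 0.00859% to 0.0112% in wild types, and all 11 contractile muscle genes (median 3.31), at 9.43% to 13.2% in mutants and 0.876% to 1.99% in wild types. The 7 skin epithelium markers were all higher (median 1.51), yet their summed share overlapped, at 0.602% to 1.86% in mutants and 0.326% to 1.03% in wild types. Of 7 Schwann cell markers 4 were higher (median 2.15), at 0.160% to 0.327% in mutants and 0.0248% to 0.154% in wild types. Smooth muscle and pericyte genes were mixed, with 5 of 8 higher and 2 lower (median 1.23), at 0.0392% to 0.0515% in mutants and 0.0429% to 0.0527% in wild types. Thymocyte markers (median -4.47) were at 0.0125% to 0.0418% in mutants and 0.809% to 1.01% in wild types. Of 5 thymic epithelial markers 3 were lower and 2 were not called (median -1.79), at 0.0170% to 0.0363% in mutants and 0.0427% to 0.0764% in wild types. The part of these cell types, and of tissue around the thymus taken along in dissection, in the levels of the collagen chains was not tested.

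**Figure D5:**
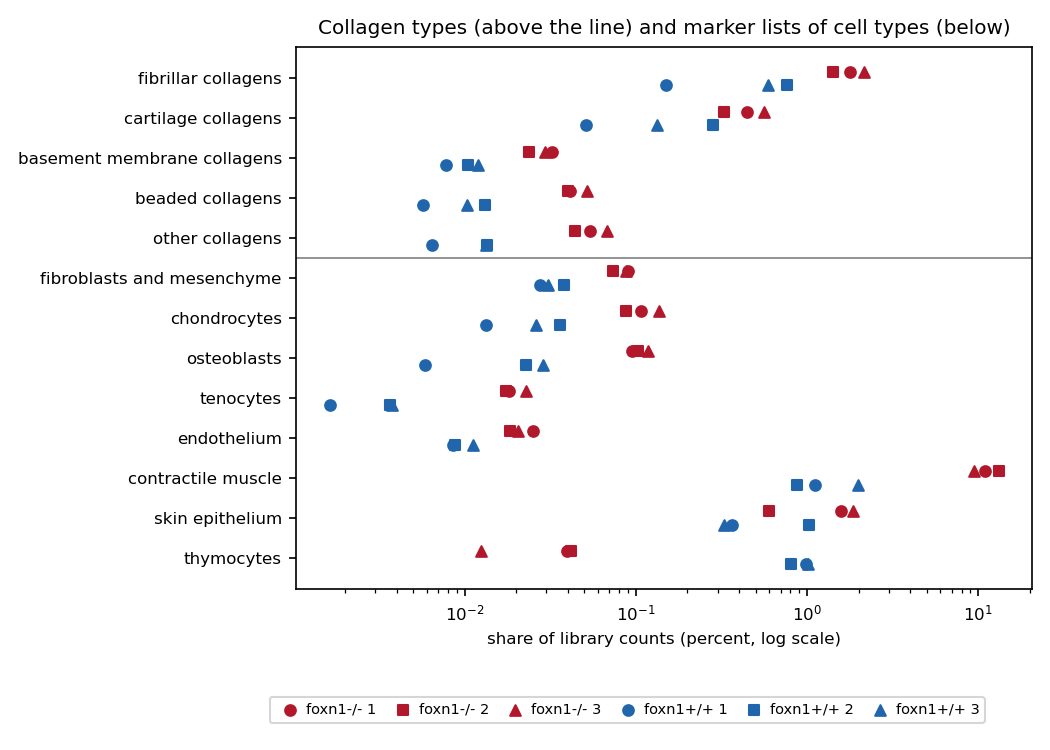
Share of each library's counts (x axis, percent, log scale) taken by the collagen types, above the line, and by marker lists of cell types, below it, with *foxn1*-/- libraries in red, *foxn1*+/+ libraries in blue and symbols for replicates 1 (circle), 2 (square) and 3 (triangle). The genotypes are apart for each collagen type, and skin epithelium overlaps. Wild-type replicate 1 is lowest for each collagen type and for the fibroblast, chondrocyte, osteoblast, tenocyte and endothelium groups.

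The collagen counts were also divided by type within each library. Fibrillar chains took 75.7%, 76.4% and 75.1% of collagen counts in mutants and 67.9%, 70.4% and 77.9% in wild types, and cartilage chains took 18.9%, 17.7% and 19.6% in mutants, against 23.1%, 26.2% and 17.4% in wild types. Basement membrane chains took 1.37%, 1.28% and 1.04% in mutants, against 3.51%, 0.959% and 1.57% in wild types, wild-type replicate 1, the library with the fewest collagen counts (92161), being the highest. Beaded chains took 1.75%, 2.16% and 1.81% in mutants, against 2.59%, 1.21% and 1.35% in wild types, and the other chains 2.31%, 2.39% and 2.39% in mutants, against 2.91%, 1.25% and 1.75% in wild types. The genotypes overlapped for each of the 5 shares, and the wild types varied more than the mutants in each.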

How the data were processed

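Whole thymi were profiled by bulk RNA-seq of polyadenylated RNA in 3 *foxn1*-/- and 3 *foxn1*+/+ libraries, grouped by sample titles. The authors trimmed reads with Trim Galore (0.4.3.1), aligned them with HISAT2 (2.1.0) on GRCz11, counted them with featureCounts (1.6.1.0), as the submitters' processing notes list. The deposited values are whole counts for each Ensembl identifier, not normalized. The annotation release, the strand option and the handling of reads with several alignments are not given in the sources used here, so values of near-identical paralogues are uncertain. Replicates are pools of RNA from 3 fish; where pools do not come from separate broods, p-values cover only the spread between them. No 2 libraries of a genotype agreed within counting noise (the smallest chi-square divided by its degrees of freedom was 34.5).

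A gene was tested if its count exceeded 5 in 3 or more libraries. The main test was edgeR's quasi-likelihood F-test (4.0.16, R 4.3.3), with TMM and robust estimation, adjusted with the Benjamini-Hochberg method; standard errors were derived from the fold change and its F statistic. Count tables hold no unassigned rows. Symbols came from a table that matched 29201 identifiers; a list entry without a match was looked up in capitals and without its final a or b, and each identifier found was used. Of the entries of the lists, 12 had no identifier. Alternatives were DESeq2 (1.42.0), voom and treat of limma (3.58.1) with a fold of 1.2, other scalings and filters, the replicate number as a block, and each library left out. The code was tested on simulated data. Named by rule were, for each type, the most abundant chain and those with the largest rise and fall (mean of at least 1 CPM). The chains of known trimers and chains called lower were named too. So were the most abundant gene, largest rise and largest fall of each processing list. The largest fall was the least raised gene, except among modifying enzymes, where it was *COLGALT1* (-0.26). Further genes were added after their values were seen. Members, lists and tests were chosen with earlier results of these data known. Gene lengths were not used here. Shares of collagen counts, ratios of chains and the choice of the most abundant genes therefore compare counts, not numbers of transcripts. No sequences are shown.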

Additional observations from a re-analysis of the deposited data

How the results depend on the processing

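The 5 types and all 52 chains kept a positive fold change under the 13 alternatives in which each could be tested, and 42 of the 48 chains called higher kept their call under each of them. The count of chains called higher was 48 by DESeq2 and with its size factors, 47 by voom and treat, without a filter and (of 49 tested) with at least 10 counts in every library, 45 with the replicate block and 43 with library size alone; it ranged from 43 to 50 over the fits without 1 library. The chains that lost their call under at least 1 alternative were *col5a2b*, *col5a3b*, *COL10A1* (ENSDARG00000054753), *col7a1*, *col7a1l* (ENSDARG00000069692) and *col14a1b*, and each of the 4 chains not called was called under at least 1 (*col24a1* and one *COL10A1* without wild-type replicate 2, *col4a6* without mutant replicate 3, *col7a1l* ENSDARG00000093135 without mutant replicate 2). Library size alone moved the all-gene median of log2 fold changes by -0.40 and the median of the chains to 1.93, and the share of higher genes among all calls to 38.4%, against 50.2% with TMM. With library size alone, 1 modifying enzyme was called lower, against 0 with TMM. Replicate numbers showed no clear pairing of the libraries. Deviations of same-numbered mutants and wild types correlated by 0.139, -0.0611 and -0.00895, and those of other pairs by -0.111 to 0.106. Of 3 mutants, 1 correlated best with its own number. With 3 libraries per genotype, such weak values cannot decide whether equal numbers share a batch. The block is therefore only an alternative. Counts limit *col24a1* and *col7a1l* (ENSDARG00000093135), with at most 24 and 37 counts in any library. They also limit the wild-type level of *col28a1b*, with 9, 9 and 18 counts.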
